A study of Mus musculus with 4 samples.

Results

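Semaphorins are guidance ligands, plexins are their receptors and neuropilins are co-receptors, and the genes of these families were followed in mouse islets treated with a glucokinase activator. The array carried 43 probes for 33 such genes, of 39429 non-control probes and 26265 named genes in all. They were taken by gene name and comprised 20 semaphorins of classes 3 to 7, 9 plexins, both neuropilins and the plexin domain containing genes Plxdc1 and Plxdc2. Islets of C57BL/6 mice aged 8 weeks were cultured for 24 h in medium with 5.6 mM glucose, with 30 µM of the activator (GKA) or with its solvent DMSO (vehicle). Each group had 2 samples, hybridised to 1 Agilent array each, and the labels do not say whether they came from separate mice or cultures, so every p-value rests on a spread between samples that could be purely technical.

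Class 3 semaphorins are secreted and act mostly through a neuropilin paired with a plexin, whereas those of classes 4 to 6 span the membrane and semaphorin 7a is held there by a lipid anchor, and these bind plexins directly. The cytoplasmic part of a plexin inactivates small GTPases of the Ras and Rap families, which detaches the cell edge from its matrix and turns an axon or a migrating cell away. In the pancreas, semaphorin 3a and neuropilin 2 are known for guiding endocrine cells as islets form, and neuropilins also bind vascular endothelial growth factors, on which islet capillaries depend.

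Values are log2 signals, each being a processed intensity divided by the 75th percentile of its array and put on the log2 scale, so a value of 0 is the brightness of that percentile and levels of different probes are not compared. That percentile was 751 and 755 for vehicle and 557 and 598 for GKA, and 59.6% to 63.5% of probes were well above background. All 10 listed markers of beta cells were measured. The 4 arrays shared 1 slide, vehicle at the first positions and GKA at the last, and an effect of position cannot be told apart from that of GKA. In bulk islets, fewer cells of a type and less RNA per cell cannot be told apart either.

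Most of the family did not pass the test, and the exceptions were far apart in size. A gene was tested when its probe was well above background on both arrays of a group, which 28 of the 33 met. Of these, 1 rose (Sema3c) and 2 fell (Sema5a and Plxnb2) at an adjusted p under 0.05 in limma, while 25 did not pass. Over all 17178 genes tested, 9.11% were called higher and 8.01% lower, so neither count stood above the background of this comparison. At an unadjusted p under 0.05 there were 9 of the 28 family genes, against 36.1% of all genes. The median difference of the 28 genes was -0.09, beside -0.01 for all genes, and the 2 arrays of a group lay wholly to one side of the other group in 20 of them, against 65.9% of all genes. Of those 20, 8 were higher and 12 lower with GKA.

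**Figure D1:**
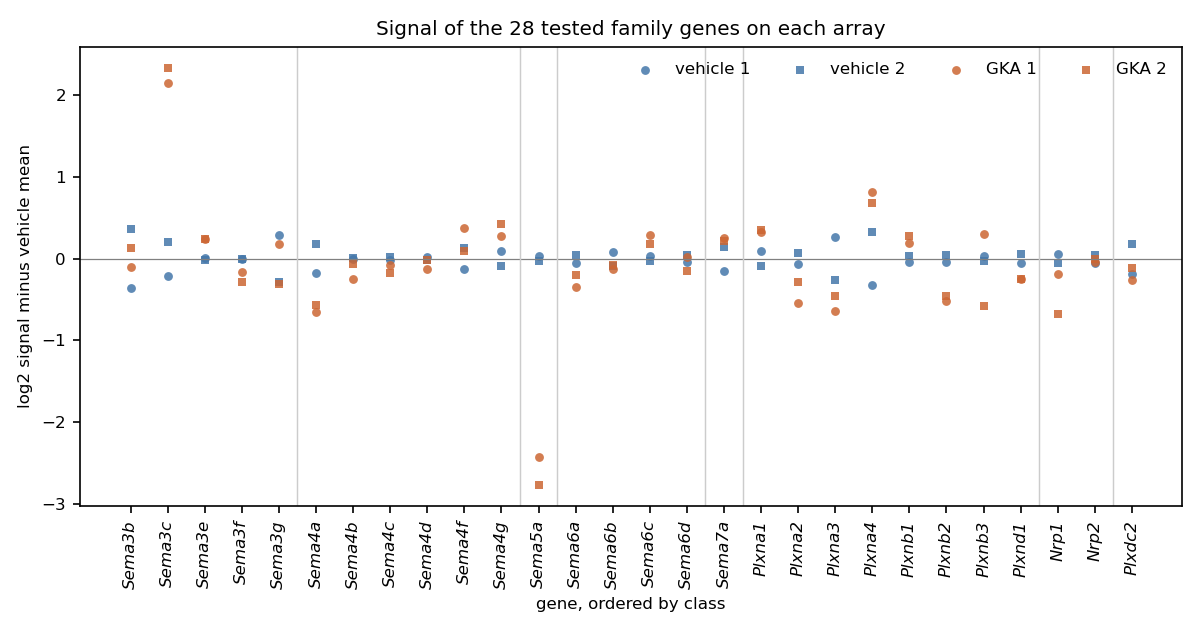
The log2 signal of each of the 28 tested genes minus its vehicle mean (vertical axis), with 1 point per array, blue for vehicle and orange for GKA, circles for replicate 1 and squares for replicate 2. Sema3c and Sema5a are the genes whose GKA points lie more than 2 log2 units from the vehicle mean, with differences of 2.24 and -2.60.

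Sema3c, a secreted ligand of neuropilins and plexin D1 that guides cells in the developing heart and vessels, had the largest rise. Its brighter probe (mm9, chromosome 5, 17235981 to 17236040) read -3.78 and -3.36 with vehicle and -1.42 and -1.23 with GKA. Both GKA arrays thus lay well above both vehicle arrays, and the gap between groups was several times that between replicates. In processed intensity, before any scaling, this was 54.8 and 73.4 against 208 and 254. The log2 difference was 2.24 ± 0.18 (SE, n = 2 per group), or 4.73-fold (limma, adjusted p = 0.00508), the rank 103 in size among all genes tested.

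A separate probe for Sema3c (mm9, chromosome 5, 17234078 to 17234137) moved the same way. It read -7.70 and -7.63 with vehicle, where it was not well above background, and -4.22 and -4.24 with GKA, where it was on both arrays. Set against the lowest signal well above background on each vehicle array, Sema3c was at least 3.27-fold higher by this probe. It entered the fit only through the GKA arrays, so no measured difference is given for it. In the authors' deposited table, the ratio of GKA over control for Sema3c was 3.60 on the brighter probe. It was 8.28 on the dimmer probe, where it is likewise taken over a vehicle level not well above background.

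Sema5a, a transmembrane semaphorin with thrombospondin repeats that repels neurites through plexins A1 and A3 in the retina, had the largest fall. It read -1.87 and -1.94 with vehicle and -4.34 and -4.68 with GKA (mm9, chromosome 15, 32626025 to 32626084). The vehicle arrays nearly coincided, and the GKA arrays were both far below them but still well above background, which began at -5.81 and -5.46 there. The log2 difference was -2.60 ± 0.15 (limma, adjusted p = 0.00341), or 6.07-fold lower with GKA, at rank 53 in size. Its processed intensity was 205 and 197 with vehicle against 27.5 and 23.4 with GKA, and its ratio in the authors' deposited table was 0.127. Sema5a has 1 probe on the array, so no other probe bears on this value.

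The promoters of the gene that rose most and the gene that fell most are shown because these are the family members with the clearest differences. Each is the RefSeq window of GRCm38.p6 from 250 bases before to 50 after the start, 5′ to 3′, with letters in capitals where a searched motif matched.
Sema3c: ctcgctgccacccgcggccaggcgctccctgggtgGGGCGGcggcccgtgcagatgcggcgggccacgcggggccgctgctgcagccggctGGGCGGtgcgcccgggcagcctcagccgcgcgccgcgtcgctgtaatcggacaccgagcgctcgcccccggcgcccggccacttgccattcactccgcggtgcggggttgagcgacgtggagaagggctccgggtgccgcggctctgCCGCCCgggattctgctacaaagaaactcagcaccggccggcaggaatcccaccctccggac
Sema5a: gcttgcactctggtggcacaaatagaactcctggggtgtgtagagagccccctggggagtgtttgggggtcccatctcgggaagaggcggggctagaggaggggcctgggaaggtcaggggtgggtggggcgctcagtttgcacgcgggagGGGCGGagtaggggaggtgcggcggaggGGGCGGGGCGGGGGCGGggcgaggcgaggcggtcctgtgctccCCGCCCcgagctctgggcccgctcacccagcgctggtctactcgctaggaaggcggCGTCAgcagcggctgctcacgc
The window of Sema3c is chr5:17574566-17574865 on the plus strand and that of Sema5a is chr15:32244563-32244862 on the plus strand. The motifs searched on both strands were the GC box GGGCGG, the E-box CACGTG, the cAMP response element core TGACG, the CAAT box CCAAT and the TATA box TATAAA, and matches of the GC box may share a base. The Sema3c window held 3 GC boxes and none of the others, and the Sema5a window held 5 GC boxes and 1 TGACG. A GC box was in 35.7% of all 32851 windows and in 27 of the 37 windows found for 26 family genes. CACGTG was in 7.15% of all windows and 3 of the 37, and TGACG in 20.8% and 3. CCAAT was in 37.4% of all windows and 7 of the 37, and TATAAA in 13.6% and 0. Base composition goes with these shares, at 75.7% G and C for Sema3c and 71.3% for Sema5a. The median was 52.7% over all windows and 63.7% over the 37 family windows. No binding was measured, and a match is only a description of the letters.

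The other class 3 semaphorins did not pass. Sema3f, a ligand of neuropilin 2, read 1.77 and 1.77 with vehicle and 1.62 and 1.49 with GKA, a difference of -0.22 (95% interval -0.51 to 0.07). Sema3e, which binds plexin D1 without a neuropilin and shapes blood vessels, stood at 0.24 (-0.04 to 0.51). The vehicle arrays for Sema3b were far apart, at -3.02 and -2.30, and enclosed both GKA arrays at -2.76 and -2.53, so its difference of 0.01 ± 0.26 says little. Sema3g, made mainly by endothelial cells, varied as much within as between groups, with -1.88 and -2.45 for vehicle and -1.99 and -2.48 for GKA. Sema3a and Sema3d were not well above background on any array.

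Among class 4 semaphorins, Sema4a lay just outside the threshold. Sema4a, a membrane ligand of plexins B and D1 that also acts on T cells, read 2.24 and 2.60 with vehicle and 1.77 and 1.86 with GKA. The groups did not overlap, but the vehicle arrays differed by 0.35. The difference was -0.61 ± 0.16, with an adjusted p = 0.0545 in limma. The other 5 class 4 genes had differences from -0.16 to 0.35. Sema4c, a ligand of plexin B2, read 5.35 and 5.39 with vehicle and 5.29 and 5.20 with GKA (-0.13, 95% interval -0.41 to 0.16). Sema4d, a ligand of plexin B1 also known as CD100, stood at -0.08 (-0.37 to 0.21) and Sema4b at -0.16 (-0.47 to 0.16). Sema4g was close to background, at -5.34 and -5.51 with vehicle and -5.14 and -5.00 with GKA. Sema4f stood at 0.24 ± 0.16, and its dimmer probe did not reach the background threshold on an array of either group.

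Classes 6 and 7 showed no called gene in limma, a count of 0 of 5, and 0 of the 5 had an unadjusted p under 0.05, against the same 36.1% of all genes. Semaphorins of class 6 act in both directions between cells and bind plexins of type A. Their differences were -0.28 ± 0.12 for Sema6a, -0.11 ± 0.12 for Sema6b, 0.24 ± 0.12 for Sema6c and -0.06 ± 0.12 for Sema6d. The probes of Sema6d pointed opposite ways: the brighter read 0.89 and 0.98 with vehicle and 0.96 and 0.78 with GKA, and the dimmer read -3.90 and -3.72 against -3.60 and -3.54, a difference of 0.24. Both were small and neither passed. Sema7a, which binds plexin C1 and the integrin with the subunits alpha 1 and beta 1, read 1.89 and 2.18 with vehicle and 2.29 and 2.26 with GKA. Vehicle replicate 2 was nearer to the GKA arrays than to vehicle replicate 1, and the difference was 0.24 ± 0.14 (limma, adjusted p = 0.29). Sema5b, of class 5, was well above background only on GKA replicate 1 with one probe, at -6.17 and -5.90 for vehicle and -5.07 and -6.14 for GKA. With the other probe Sema5b was above background nowhere, at -5.87, -6.50, -6.81 and -7.42, and it was not tested.

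**Figure D2:**
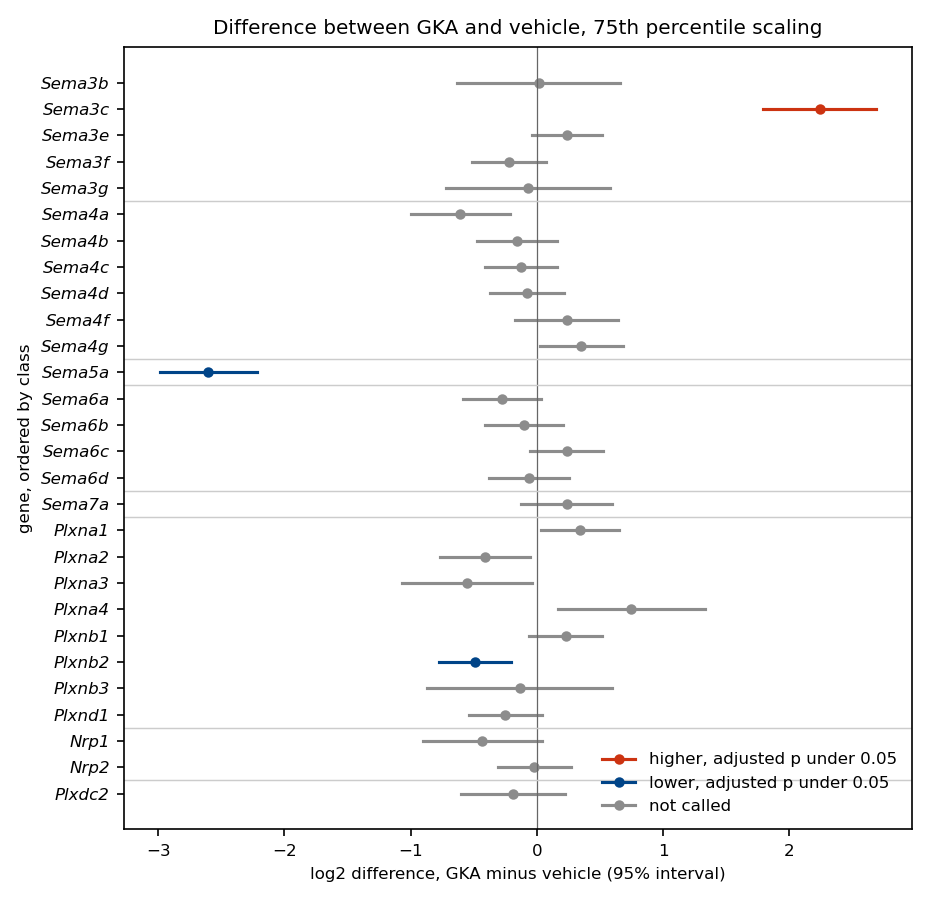
The log2 difference of GKA minus vehicle for each of the 28 tested genes (points) with its 95% interval from limma (lines), coloured by whether the adjusted p was under 0.05. Of the 28 genes, 25 are grey, and the interval of Sema4a, from -0.998 to -0.21, lies below 0 although its adjusted p did not pass.

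Plxnb2 was the only plexin that passed. Plexin B2 is a receptor of class 4 semaphorins. Plxnb2 read 4.54 and 4.62 with vehicle and 4.05 and 4.12 with GKA (mm9, chromosome 15, 88985981 to 88986040). The arrays of each group lay within 0.08 of each other, and the groups did not overlap. The difference was -0.49 ± 0.11, or 1.40-fold lower (limma, adjusted p = 0.0434), and the ratio in the authors' deposited table was 0.546. This call was the least firm of the 3. The adjusted p of Plxnb2 was 0.0648 with the replicate number as a block, and without vehicle replicate 1, vehicle replicate 2, GKA replicate 1 or GKA replicate 2 it was 0.0927, 0.109, 0.163 and 0.144, at differences from -0.53 to -0.45.

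Plexins of type A, which pair with neuropilins for class 3 and directly bind class 6 semaphorins, had differences of both signs and did not pass. Plxna1 read -1.46 and -1.64 with vehicle and -1.22 and -1.20 with GKA, a difference of 0.34 (95% interval 0.03 to 0.65, adjusted p = 0.114 in limma). Plxna2 stood at -0.41 (-0.77 to -0.05) and Plxna3 at -0.55 (-1.07 to -0.04). Plxna4 read -4.22 and -3.57 with vehicle and -3.08 and -3.21 with GKA, a difference of 0.75 ± 0.23 (limma, adjusted p = 0.0815), and its vehicle arrays were further apart than its GKA arrays. Without vehicle replicate 2, Plxna4 stood at 1.08 with an adjusted p = 0.0122, and Plxna3 at -0.82 with an adjusted p = 0.0286. The dimmer probe of Plxna4 was below background throughout, at -8.03, -7.23, -7.98 and -7.58, and so has no measured direction.

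The remaining plexins were nearer to 0. Plxnb1, the receptor of semaphorin 4d, stood at 0.23 (95% interval -0.06 to 0.52) and Plxnd1, an endothelial receptor of semaphorins 3c and 3e, at -0.25 (-0.54 to 0.04). The dimmer probe of Plxnd1 stood at -0.05. Plxnb3 was well above background on both vehicle arrays and on GKA replicate 1 but not on GKA replicate 2, and read -5.45, -5.52, -5.18 and -6.06 in that order (-0.14 ± 0.29). Plxnc1, the receptor of semaphorin 7a, was above background on no array with either probe.

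Both neuropilins were measured, and neither passed. Nrp1, which binds semaphorin 3a and vascular endothelial growth factor, read -2.89 and -3.00 with vehicle and -3.14 and -3.62 with GKA. Its groups did not overlap, but the GKA arrays were 0.48 apart, more than the difference between groups of -0.43 ± 0.19 (limma, adjusted p = 0.162). Nrp2, a co-receptor for semaphorins 3c and 3f, read 0.27 and 0.37 with vehicle and 0.28 and 0.32 with GKA on its brighter probe. The GKA values lay between the vehicle values, with a difference of -0.02 (95% interval -0.31 to 0.27). The other probe of Nrp2, assigned to a different transcript in the authors' deposited table, read -3.45 and -3.12 against -3.76 and -3.55 (-0.37 ± 0.16, adjusted p = 0.167 in the fit of single probes). Plxdc2, which shares a domain with plexins but is not known as a semaphorin receptor, stood at -0.19 (-0.60 to 0.22). Plxdc1 was well above background on 1 array of each group and was not tested.

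**Figure D3:**
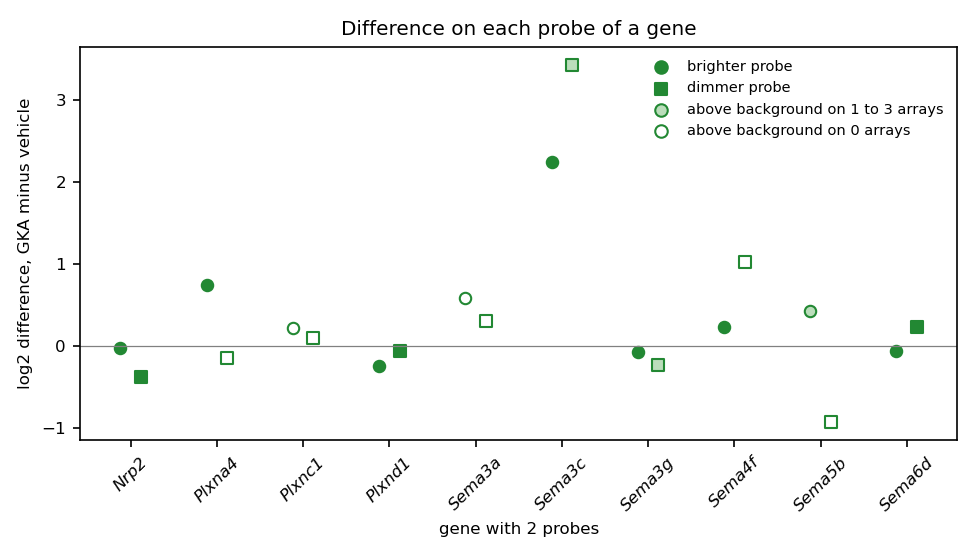
The log2 difference of GKA minus vehicle on each probe of the 10 genes with 2 probes (circle for the brighter, square for the dimmer probe), filled by how many arrays were well above background. Both Sema3c probes lie above 2, the dimmer one with no measured vehicle level. Points of Plxna4, Sema5b and Sema6d lie on opposite sides of 0, but only Sema6d had both probes well above background in both groups.

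Seen as ligand and receptor sets, the receptors of semaphorin 3c were not called beside it. Its difference was 2.24, beside -0.02 for Nrp2, -0.43 for Nrp1, -0.41 for Plxna2 and -0.25 for Plxnd1. For semaphorin 5a, the receptors known from the retina, Plxna1, at 0.34, and Plxna3, at -0.55, had opposite signs, and neither passed. For plexin B2, the ligand genes Sema4a, at -0.61, and Sema4c, at -0.13, did not pass. Of all 6 class 4 semaphorin genes, 4 were below 0 and 2 above, up to 0.35 for Sema4g, and none passed. These are values side by side, and no relation between genes was tested.

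Molecules that share receptors with the family were listed apart from it. Of 28 listed names of receptor partners and ligands, 27 were on the array, and the other, Vegfd, is the gene that the array names Figf. Of these, 22 were tested, and 5 fell, 1 rose and 16 did not pass in limma. Over all genes, 8.01% were called lower and 9.11% higher. The median difference of the partners was -0.26. The adhesion molecules Nrcam (-0.80 ± 0.11) and L1cam (-0.79 ± 0.16), which join neuropilins in receptors for class 3 semaphorins, fell. So did Cd72 (-0.91 ± 0.16), a receptor of semaphorin 4d on B cells, Itga1 (-0.89 ± 0.11), a subunit of the integrin bound by semaphorin 7a, and Vegfb (-0.65 ± 0.14), a ligand of neuropilin 1. Ptk7, a pseudokinase that associates with plexins, read -0.09 and -0.21 with vehicle and 0.91 and 0.72 with GKA, a rise of 0.96 ± 0.13 (adjusted p = 0.0138). The endothelial receptors Kdr, at 0.34 ± 0.15, and Flt1, at -0.20 ± 0.13, and the growth factor Vegfa, at 0.10 ± 0.15, did not pass. The value of Kdr is that of its brightest probe, and the mean of its probes gave -0.19 (limma, adjusted p = 0.305), so its sign is not settled. With normexp, Itga1 stood at only -0.04 (adjusted p = 0.809) after 75th percentile scaling and -0.30 (0.0675) after quantile normalization, L1cam stood at -0.43 after the former, and Ptk7 did not pass with spike-in scaling (0.48, adjusted p = 0.14). The partner calls were lost without GKA replicate 1 or GKA replicate 2. Such a fit leaves 1 GKA sample, and far fewer of all genes passed there too.

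Of 43 listed cytoplasmic effectors, 41 were tested, of which 6 rose, 1 fell and 34 did not pass, beside 9.11% called higher and 8.01% called lower over all genes, with a median of 0.01. The small GTPase genes Rap1b (0.88 ± 0.12), Rras2 (0.67 ± 0.14) and Rap2a (0.49 ± 0.12), which encode substrates of plexins or their close relatives, rose. Farp2 (0.64 ± 0.12), an exchange factor bound to type A plexins, Dpysl3 (0.70 ± 0.17), of the collapsin response mediators, and Pik3r1 (0.98 ± 0.15), a subunit of phosphoinositide 3-kinase that serves many receptors, rose too. Mras, another GTPase of the Ras family, fell by 0.61 on the log2 scale. Rras, of the same family, stood at 0.01 (limma, adjusted p = 0.944), so the GTPase genes listed did not move together. With spike-in scaling none of the 6 passed, and their differences ran from 0.01 for Rap2a to 0.50 for Pik3r1. The effector calls were likewise lost without GKA replicate 1 or GKA replicate 2, where far fewer of all genes passed.

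Markers of the cell types in an islet preparation were read beside these genes, since semaphorins and plexins are made by several of them. Their counts stand beside 9.11% called higher and 8.01% called lower over all genes, and with lists this short several lie near those shares. Of 14 leukocyte markers tested, 6 fell and 1 rose, with a median of -0.73, and their summed signal was 15.3 and 12.6 with vehicle against 12.5 and 11.03 with GKA. Cd79a, a B cell gene, was not tested because it did not reach the background threshold. Of 12 endothelial markers, 2 rose and 1 fell, with sums of 22.2 and 21.5 against 24.4 and 22.5. Of 11 markers of fibroblasts, stellate cells and pericytes, 1 fell, with sums of 88.2 and 84.5 against 76.4 and 75.3, and of 9 neural and Schwann cell markers 2 rose and 1 fell, with sums of 15.3 and 13.7 against 14.1 and 14.2. Of 10 beta cell markers, 3 rose, with sums of 1163 and 1154 against 1452 and 1420. Of 10 markers of other endocrine cells, 1 rose, with sums of 1256 and 1249 against 1590 and 1487. Of 6 acinar markers tested, 2 rose and 1 fell, with sums of 5.05 and 4.56 against 11.7 and 11.01. Of 7 duct markers, 1 rose and 2 fell, with sums of 32.0 and 28.2 against 27.4 and 33.4. The sums of leukocyte and of fibroblast, stellate and pericyte markers were lower with GKA, as were Sema5a, Plxnb2, Sema4a and Cd72. Those of beta cell, other endocrine, endothelial and acinar markers were higher, as was Sema3c. A sum follows its brightest probes. That of fibroblast, stellate and pericyte markers rests mostly on Sparc (-0.17, limma, adjusted p = 0.337), which did not pass. Of the leukocyte markers 9 lay below 0 and 5 above, and of fibroblast, stellate and pericyte markers 8 and 3. Counts above and below 0 were 9 and 1 for beta cell, 8 and 2 for other endocrine, 6 and 6 for endothelial and 3 and 3 for acinar markers. The endothelial sum includes Kdr, whose difference changed sign when its probes were averaged. The part of these cell types in those values was not tested.

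The sign of small differences depended on how the arrays were scaled. With the 75th percentile, 10 of the 28 family genes were above 0 and 18 below. Without scaling, the median of all genes was -0.40, and 26 family genes lay below 0, with 16 called lower and 1 called higher. Of all 17178 genes, 7654 were called lower there and 750 higher. With spike-in scaling the median of all genes was -0.50, and again 26 family genes lay below 0. Of the family 11 were called lower, beside 6108 of all 17178 genes. In the authors' deposited table, 26 of the 28 ratios were below 1, as were 78.9% over all probes, where the median was 0.841. Sema3c lay above 0 and Sema5a below 0 under every one of 14 alternatives, and both passed in each. Sema3c ranged from 1.53 with normexp and quantile normalization to 2.45 without vehicle replicate 2 (adjusted p from 6.25e-09 to 0.0486). The mean of its probes gave 2.84, but that value takes in the dimmer probe, whose vehicle level was not measured. Sema5a ranged from -3.09 with spike-in scaling to -1.31 with normexp (adjusted p from 4.01e-27 to 0.0425). The lowest p-value of both genes came from spike-in scaling and does not measure their precision. In that fit Sema4f and Sema7a, both at -0.25, had the same adjusted p of 0.444 in limma although their replicates differed in spread. The p-value there followed the size of a difference, and the 11 genes called lower rest on the same fit. Plxnb2 lay below 0 in all 14 and passed in 8 of them, and Sema4a lay below 0 in all 14 and passed in 7.

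**Figure D4:**
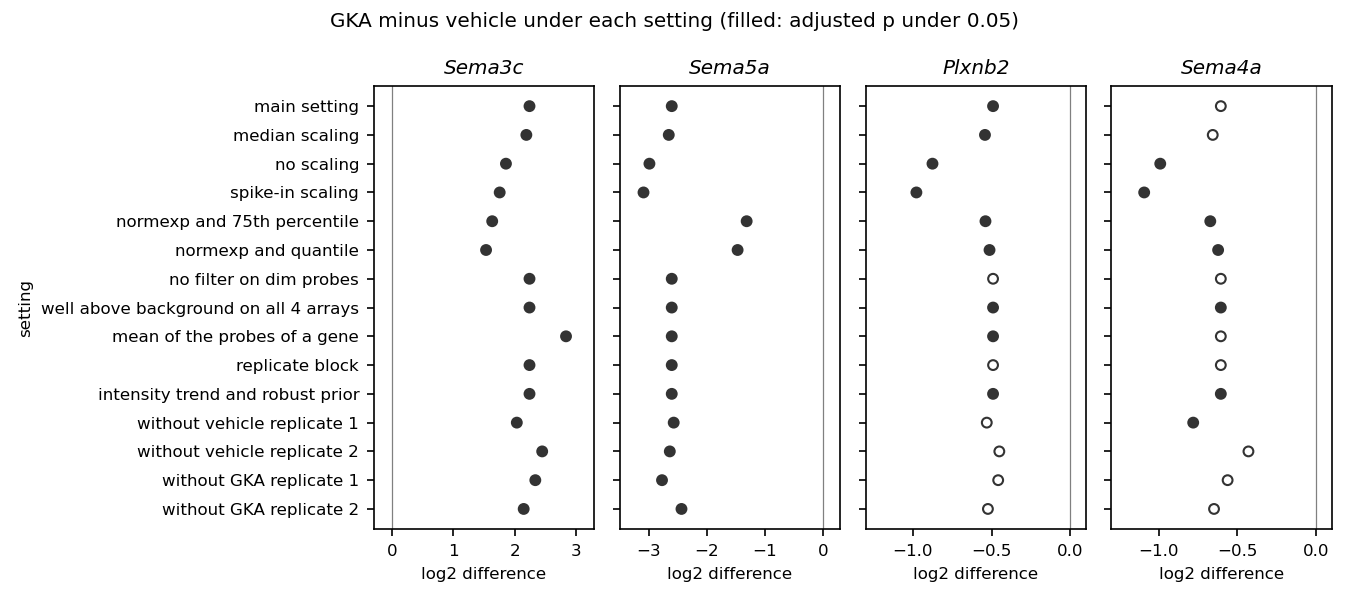
The log2 difference of GKA minus vehicle (horizontal axis, a separate range in each panel) for Sema3c, Sema5a, Plxnb2 and Sema4a under the main setting and 14 alternatives, filled where the adjusted p was under 0.05. All points of Sema3c and Sema5a are filled, and 6 of the alternatives for Plxnb2 are open.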

How the data were processed

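The intensity of each spot was taken from the deposited Agilent Feature Extraction files (version 10.7.3.1 per the file headers, 9.1 per the submitters' processing notes), background-subtracted and detrended within an array but not scaled between arrays. Gene names and the ratio of GKA over control came from the authors' deposited table, whose scaling is not given in the sources used here. Control spots and outlier spots were left out, repeated spots were averaged per probe as log2 values, and each array's 75th percentile was subtracted. The brightest kept probe stood for a gene.

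Groups were compared with limma 3.58.1 (lmFit and eBayes) in R 4.3.3. Tests were two-sided, and p-values were adjusted by Benjamini-Hochberg across the 17178 genes tested, with 0.05 as the threshold. The fit had 2 residual and 3.33 prior degrees of freedom. An exact permutation of 4 arrays cannot go below p = 0.333. In 20 simulations over 17178 genes, each with 200 genes changed, the fit recovered 37.8% of those changed 2-fold and 92.6% of those changed 4-fold. False calls made up 5.24%. The simulated errors were independent between genes and drawn from the fit's own prior, with no array or slide effect. Far more than 200 genes were called in the data, so these shares need not hold there. The number of arrays limits the precision.

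Members and lists were chosen with earlier results of these data known. All members are accounted for, and arrays are given one by one for those that passed, had a bound or had probes of opposite sign. Of partners and effectors, up to 4 passing genes per direction and Kdr and Flt1 were to be named; Vegfb, Vegfa, Rap2a, Farp2 and Robo1, and arrays of other members, were added after their values were seen. Alternatives covered scaling, normexp (offset 50, on median spot signals), the filter, the choice of probe, the prior, a replicate block and each array left out.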

Additional observations from a re-analysis of the deposited data

How the results depend on the processing

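Sema3c and Sema5a kept their direction and passed under all 14 alternatives, and no called gene named above changed sign in any. The family genes called lower, 2 in the result reported, numbered 16 without scaling, 11 with spike-in scaling, 4 with normexp and the 75th percentile, 4 with an intensity trend and robust prior, 1 without the filter and 1 with the replicate block. Those called higher, 1 as reported, numbered 3 with normexp and 2 with the trend. Leaving out an array gave 1 to 2 lower and 1 to 2 higher. The partners called lower, 5 as reported, numbered 13 without scaling, 14 with spike-ins, 8 with the trend and 0 without the filter, and those called higher, 1 as reported, numbered 0 with spike-ins, 2 with normexp, 2 with the trend and 0 without the filter. Leaving out an array gave 0 to 5 lower and 0 to 3 higher. The effectors called higher, 6 as reported, numbered 2 without scaling, 0 with spike-ins, 0 without the filter and 2 with the replicate block. Those called lower, 1 as reported, numbered 17 without scaling, 12 with spike-ins, 2 with normexp and the 75th percentile, 2 with normexp and quantile normalization, 2 with the trend, 0 without the filter and 0 with the replicate block. Leaving out an array gave 0 to 4 higher and 0 to 1 lower. Without the filter 26263 genes were tested, of which 156 were called higher and 67 lower. With the trend, 2190 of 17178 were called higher and 2316 lower, and with the replicate block 1014 and 902. Over all genes, 1565 were called higher and 1376 lower as reported, 750 and 7654 without scaling, 468 and 6108 with spike-ins, 2990 and 2055 with normexp, 315 and 305 without GKA replicate 1, and 327 and 206 without GKA replicate 2. The cause of these shifts was not tested. With spike-ins, the p-values of the named genes followed the size of the difference and not the spread of each gene. Arrays with the same replicate number deviated together with a correlation of 0.0751, so the number was not taken as a pairing. Genes near background, such as Sema4g and Plxnb3, have only small signals behind their values.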

Other observations

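Other families of guidance genes, the slits, netrins and ephrins with their receptors, were read in the same fit. Of 35 listed, 28 were tested, 0 rose and 1 fell in limma, and 5 had an unadjusted p under 0.05. Over all genes, 9.11% were called higher, 8.01% were called lower and 36.1% had an unadjusted p under 0.05. The gene that fell, named here after its value was seen, was Robo1, a receptor for slits that is also known in islet cells. Robo1 read 0.46 and 0.61 with vehicle and -0.75 and -0.54 with GKA, a difference of -1.18 ± 0.14 (limma, adjusted p = 0.0104), with both GKA arrays below both vehicle arrays. The median difference of the 28 genes was -0.14, and their groups did not overlap in 22, against 65.9% of all genes. Without the filter on dim probes its adjusted p was 0.0697, and without GKA replicate 1 it was 0.0512.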
